A study of Mus musculus with 29 samples.

Results

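Fibroblasts around the common bile duct that had lost Gli3 were compared with wild type fibroblasts of the same site, by RNA-seq of 2 Gli3FF and 5 wild type libraries. These 7 of the 29 samples of the series were chosen by their labels, and every gene was tested. The wild type mice carried Pdgfra:CreERT2 and Rosa26:lox-STOP-lox-tdTomato, a Cre recombinase driven by the Pdgfra promoter and a red reporter that Cre switches on. The Gli3FF mice carried both of these and the Gli3FF allele, a name that usually stands for loxP sites around part of the gene on both copies. Each library came from mesenchymal cells sorted from the microdissected, enzyme-digested duct of a single animal, per the labels. Recombination is limited to cells in which the Pdgfra promoter drives Cre, and the labels do not say which exons of Gli3 are flanked, so that reads from the rest of the transcript still enter its count. They give no age, sex, tamoxifen schedule, batch or hour of collection either. The other 16 Pdgfra libraries (SmoFF, SmoM2, Ctnnb1FF, Gli2FF and Gli2FFGli3FF) entered the fit to share its estimate of the spread, and Gli2FF and SmoFF were also compared with Gli3FF directly.

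Hedgehog ligands act by binding Ptch1, which then frees Smo, and Smo signals through the primary cilium to the Gli transcription factors. Without ligand, Gli3 is cut into a short form that represses target genes, while Gli1 and Gli2 act mainly as activators, and Ptch1, Hhip and Gli1 are themselves targets that report the state of the pathway. Fibroblasts that express Pi16 and Dpp4 line the adventitia of vessels and ducts in many organs and are regarded as a reservoir of other fibroblast states.

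Levels are given in CPM, read counts scaled to library size and TMM factor (TMM is edgeR's scaling between libraries), for replicates in numerical order. Changes are log2 differences between Gli3FF and wild type with the standard error (SE) of the fit, and a gene is called where the Benjamini-Hochberg adjusted p of edgeR's quasi-likelihood test is under 0.05. Gli3FF libraries held 35599465 and 27372016 counts and wild type libraries 21226029 to 30520596. The ribosomal RNA locus CT010467.1 took 39.1 and 24.5% of counts in Gli3FF against 13.4 to 29.4% in wild type, and 17544 and 22143 genes were detected against 21127 to 24483. The label of sorted fibroblasts matches the markers: the 9 sorted fibroblast markers summed to 43210 to 50194 CPM in Gli3FF and 27960 to 38502 in wild type. Among these 7 libraries Gli3FF replicate 2 stood apart in holding Xist, the transcript of the inactive X chromosome, at 268 CPM of total counts beside the Y-linked Ddx3y at 47.3, although it is labelled as coming from an individual animal. Gli3FF replicate 1 and the wild type libraries held Xist at 0.225 CPM or less and Ddx3y at 33.9 to 82.1. Gli2FF replicate 1 held Xist at 0.466 CPM and Ddx3y at 167, and Gli2FF replicate 2 held them at 1393 and 2.39. SmoFF replicates 1 and 4 held Xist at 258 and 472 CPM beside Ddx3y at 8.68 and 16.9. SmoFF replicates 2 and 3 held Xist at 0.0406 and 0 beside Ddx3y at 72.1 and 79.1. Wild type replicate 5 names SmoFF in its description but not in its title or genotype. Its level of Smo, like that of every wild type library, was above that of every SmoFF library (values below). It was kept as wild type and belongs to the set of replicates 4 and 5. Without it 976 genes were called against wild type. The wild type libraries also differed among themselves, with 428 genes called between replicates 1 to 3 and replicates 4 and 5, of which 340 were pseudogenes. Results are therefore also given against wild type 4 and 5 alone and without either Gli3FF library.

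In Gli3FF 509 of the 24383 tested genes rose and 576 fell, 1085 in all, or 4.45% (2.09% higher and 2.36% lower). The median change was −0.22 log2 over all genes and −0.067 over protein-coding genes, and 1062 of the 1085 called genes had both Gli3FF libraries beyond every wild type library, against 23.6% of all genes tested. That separation follows in large part from the call, made on the same libraries, and gives it no further support. The called genes included 822 protein-coding genes and 191 pseudogenes (90 higher and 101 lower). DESeq2, with its own scaling, called 847 higher and 1533 lower, so that the share of higher calls was 35.6% instead of 46.9%. Against wild type 4 and 5 alone 222 were higher and 263 lower (2.01% of 24077 tested, 0.922% higher and 1.09% lower), 411 of them among the 1085. Without Gli3FF replicate 1 the count was 319 (1.17%, with 0.58% higher and 0.591% lower), and without replicate 2 it was 613 (2.26%, with 1.15% higher and 1.11% lower). The p-values rest on a spread estimated over all 23 Pdgfra libraries, not over Gli3FF and wild type alone, and 2 Gli3FF libraries give a low precision. With only Gli3FF and wild type libraries in the fit, edgeR called 828 higher and 740 lower of 20322 tested, 950 of them among the 1085.

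**Figure D1:**
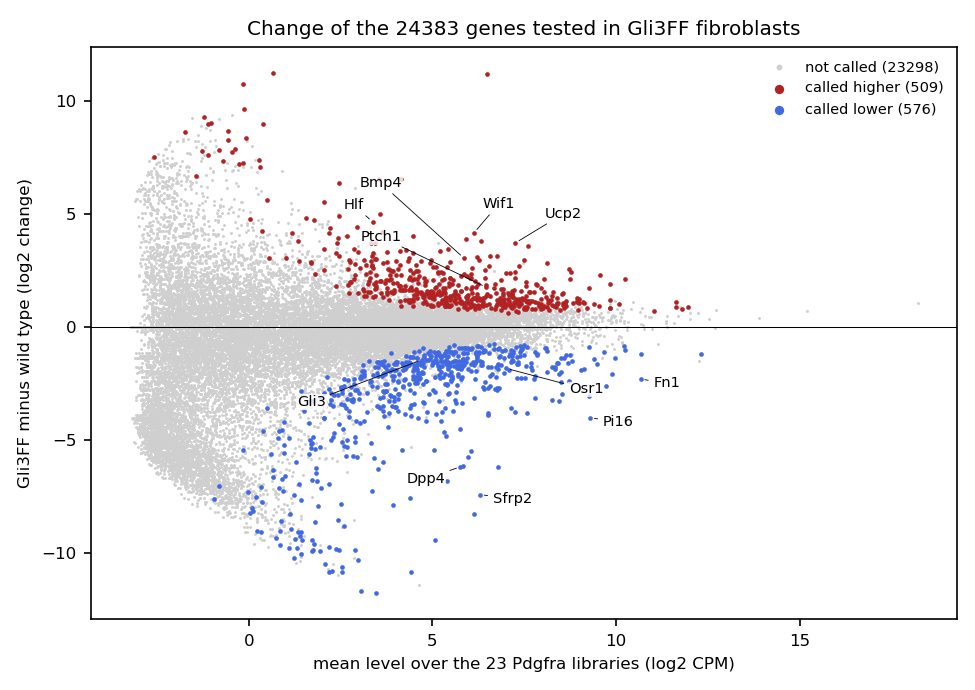
Log2 change between Gli3FF and wild type (vertical axis) against the mean level in log2 CPM over the 23 Pdgfra libraries (horizontal axis), 1 point a gene, with 509 genes called higher in red and 576 called lower in blue. Sfrp2, Dpp4, Pi16 and Fn1 lie far below 0, and Wif1, Ucp2 and Bmp4 far above it.

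Gli3 was lower in the Gli3FF libraries, and most but not all Hedgehog targets that passed the test rose. Gli3 (chromosome 13 from 15463235 to 15730026, mm10 with GENCODE M21) was at 14.4 and 12.3 CPM in Gli3FF and at 44.9, 32.4, 30.8, 41.4 and 32.7 in wild type. Both Gli3FF libraries lay below every wild type library (log2 change -1.45, SE 0.39, adjusted p = 0.0317). The call was lost against wild type 4 and 5 alone (adjusted p = 0.118) and without Gli3FF replicate 1 or 2 (adjusted p = 0.223 and 0.213), each time with a log2 change between -1.34 and -1.56. A low level of Gli3 was also found in Ctnnb1FF, whose name holds no Gli3 allele, at 13.2, 16.2 and 8.36 CPM. In Gli2FFGli3FF, in which Gli3 is targeted as well, it was at 7.63, 6.39, 2.83 and 6.397.

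Ptch1, the receptor that Hedgehog ligands bind and a direct target of the pathway, was at 83.3 and 126 CPM in Gli3FF and at 20.6, 36.99, 30.4, 29.9 and 36.04 in wild type. The groups did not overlap and Ptch1 rose (log2 change 1.77, SE 0.37, adjusted p = 0.00591), a call that was lost against wild type 4 and 5 (adjusted p = 0.109) and without Gli3FF replicate 2 (adjusted p = 0.117). Hhip, a membrane protein that traps the ligands, was at 32.7 and 21.2 CPM against 1.37, 7.66, 3.59, 1.27 and 14.4, higher in both Gli3FF libraries than in any wild type library, and did not pass the test (log2 change 2.25, SE 0.75, adjusted p = 0.0967). Gli1, the activator that is usually the most direct readout, was at 8.31 and 29.3 CPM against 13.4, 8.48, 7.96, 12.2 and 26.96, and the groups overlapped (log2 change 0.45, SE 0.70, adjusted p = 0.791). For scale, SmoM2, in which Smo is constitutively active, held Ptch1 at 274, 385 and 248 CPM and Hhip at 197, 284 and 182.

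The largest response in the list of Hedgehog targets was that of Bmp4, a secreted BMP ligand. Bmp4 (chromosome 14 from 46383520 to 46390669) was at 272 and 229.97 CPM in Gli3FF and at 28.4, 27.7, 27.3, 29.2 and 37.6 in wild type. No other Pdgfra genotype reached those levels, the ranges being 34.8 to 73.6 in SmoFF, 39.9 to 57.8 in SmoM2, 41.2 to 76.98 in Ctnnb1FF, 19.7 to 24.99 in Gli2FF and 9.21 to 25.8 in Gli2FFGli3FF. Bmp4 rose against wild type (log2 change 3.06, SE 0.30, adjusted p = 1.40e-06), also against wild type 4 and 5 (adjusted p = 0.00166), and in the direct comparisons it was higher than in Gli2FF by 3.49 (SE 0.42, adjusted p = 3.58e-05) and than in SmoFF by 2.11 (SE 0.32, adjusted p = 0.000195). The paired odd-skipped transcription factors moved apart. Osr1 (chromosome 12 from 9570116 to 9581500) was at 58.5 and 55.7 CPM against 239, 169, 180.3, 226 and 198 and fell (log2 change -1.83, SE 0.24, adjusted p = 8.37e-05), while Osr2 was at 148 and 103 CPM against 21.97, 21.02, 36.4, 30.3 and 34.6 and rose (log2 change 2.12, SE 0.28, adjusted p = 7.43e-05). Rab34, a small GTPase needed to form cilia, was at 238 and 207 CPM against 82.8 to 109 (log2 change 1.22, adjusted p = 0.000386). The feedback and target list summed to 1642 to 1804 CPM in Gli3FF and 712 to 931 in wild type. At unadjusted p under 0.05 edgeR gave 10 higher and 1 lower of its 20 tested genes. DESeq2 called 8 and 1 and limma voom 9 and 1. After adjustment edgeR called 4 higher (Ptch1, Osr2, Bmp4 and Rab34) and 1 lower (Osr1), with a median of 1.07 against -0.22 over all genes. The count was 3 and 1 against wild type 4 and 5, and 4 and 1 without Gli3FF replicate 1. Without replicate 2 it was 3 and 1.

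**Figure D2:**
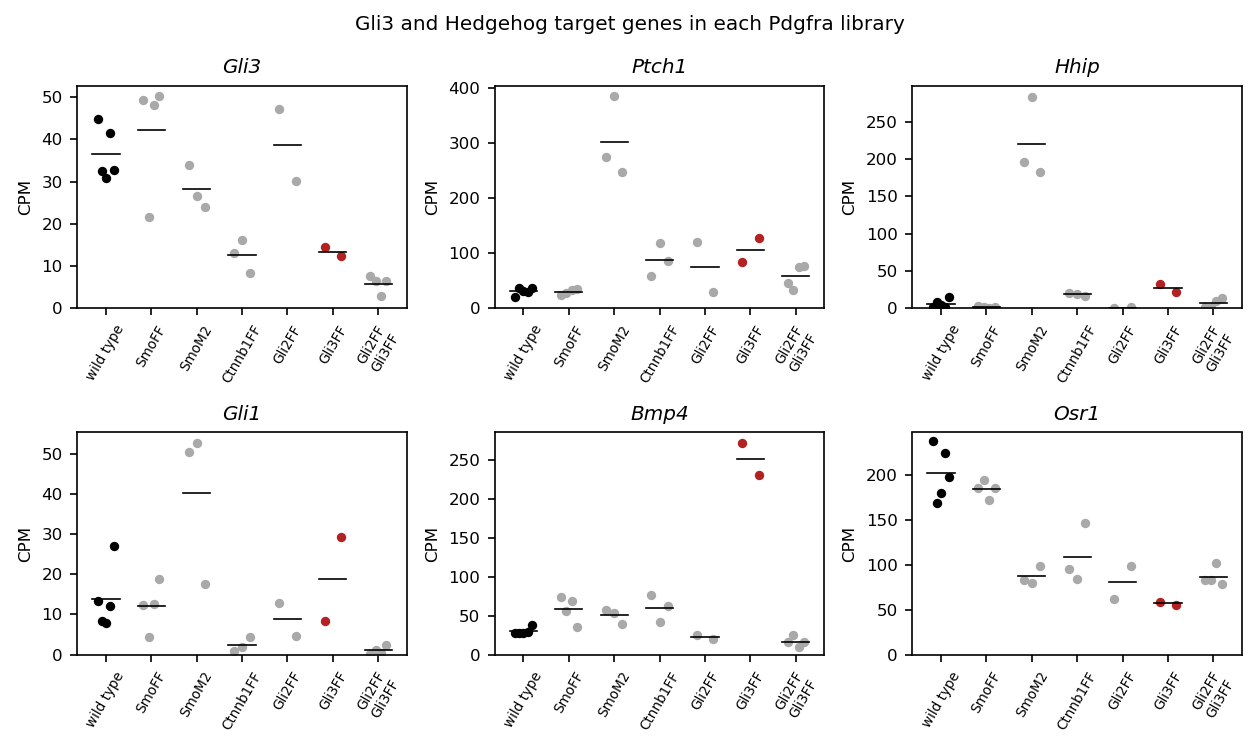
CPM of Gli3, Ptch1, Hhip, Gli1, Bmp4 and Osr1 in each of the 23 Pdgfra libraries by genotype, with points for libraries and lines for group means, Gli3FF in red and wild type in black. In Gli3FF, Gli3 and Osr1 lie below wild type and Ptch1 and Bmp4 above it, while Gli1 spans the wild type range.

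Most genes that carry the signal from ligand to Gli proteins did not pass the test. The transducer Smo was at 33.4 and 46.5 CPM against 22.6 to 36.3 (adjusted p = 0.358), Gli2 at 8.63 and 26.3 against 12.7 to 20.9 (adjusted p = 1) and the Gli inhibitor Sufu at 11.3 and 13.5 against 10.3 to 19.4 (adjusted p = 0.895). Among the co-receptors, Boc was at 78.7 and 100.5 CPM against 48.6 to 76.1, Cdon at 126 and 109.9 against 120.4 to 165 and Gas1 at 204 and 142 against 196 to 333 (adjusted p = 0.491, 0.504 and 0.361). Of 30 tested receptors, transducers and modulators 1 was higher and 3 lower, with a median of -0.24. The lower ones beside Gli3 were Disp1, which releases ligand from cells, at 1.31 and 10.4 CPM against 17.7 to 41.6 (adjusted p = 0.0149), and Gpr161, a ciliary receptor that holds the pathway down, at 0.159 and 0 against 1.81 to 3.72 (adjusted p = 0.0337). The higher one, the secreted ligand-release factor Scube1, was at 0.477 and 4.59 CPM and had no count in 4 wild type libraries (adjusted p = 0.0122). None of these 4 was called against wild type 4 and 5 (1 higher and 5 lower members of the list at unadjusted p under 0.05), and the counts by edgeR were 1 and 0 without Gli3FF replicate 1 and 0 and 1 without replicate 2. Of 33 cilium and intraflagellar transport genes 1 was higher, the dynein chain gene Dync2li1 at 74.1 and 70.2 CPM against 18.8 to 43.7 (adjusted p = 0.00937), and 0 were lower by edgeR (1 at unadjusted p under 0.05, 0 by DESeq2 and by limma voom).

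Genes that mark adventitial fibroblasts were among those that fell. Pi16, a peptidase inhibitor that marks adventitial fibroblasts, was at 77.5 and 69.3 CPM in Gli3FF and at 1409, 1048, 1199, 1252 and 987 in wild type. Dpp4, a cell-surface peptidase of the same cells, was at 0 and 2.35 CPM against 97.5, 68.6, 81.6, 116 and 68.6. For both genes the Gli3FF libraries lay far below the lowest wild type library, and Pi16 changed by -4.01 (SE 0.55, adjusted p = 0.00012) and Dpp4 by -6.17 (SE 0.87, adjusted p = 0.000148). Pdpn, the membrane glycoprotein podoplanin, was at 55.8 and 39.4 CPM against 215, 245, 234, 192 and 232 (log2 change -2.23, SE 0.31, adjusted p = 0.000141). Cd55, which breaks down complement convertases on the cell surface, was at 67.9 and 56.6 CPM against 221 to 329 (log2 change -2.16, SE 0.36, adjusted p = 0.000733). All 4 were also called against wild type 4 and 5 alone, with adjusted p = 0.00253 for Pi16, 0.00227 for Dpp4, 0.00365 for Pdpn and 0.00996 for Cd55. Cd248 (endosialin), named here after its values were seen, was at 145 and 169 CPM against 1033 to 1768 (log2 change -3.03, adjusted p = 0.000843). Gsn, an actin-severing protein abundant in these cells, was at 3743 and 3238 CPM against 6345 to 10309 (log2 change -1.17, adjusted p = 0.0429), and it too was picked after its values were seen. The falls of some of these genes were not limited to Gli3FF. Pi16 was at 98.3 and 412 CPM in Gli2FF, 117 to 273 in Gli2FFGli3FF and 153 to 518 in Ctnnb1FF. In SmoFF it was at 711 to 1571. Cd248 was at 93.3 and 273 CPM in Gli2FF, 88.6 to 200 in Gli2FFGli3FF and 70.3 to 191 in Ctnnb1FF. Gsn was at 2364 and 2753 in Gli2FF. Dpp4 was lowest in Gli3FF, but it was also below the wild type range in other genotypes. It was at 20.5 and 27.4 CPM in Gli2FF, 22.8 to 35.3 in SmoM2, 10.9 to 44.4 in Ctnnb1FF and 18.96 to 37.3 in Gli2FFGli3FF. In SmoFF it was at 74.02 to 187. Cd55 was at 96.1 to 135 CPM in SmoM2, 139 and 442 in Gli2FF, 109 to 231 in Ctnnb1FF and 234 to 312 in Gli2FFGli3FF. SmoM2 held Pi16 at 487 to 740, Cd248 at 417 to 762 and Gsn at 2824 to 5568. In bulk libraries fewer cells of a type and less RNA of a gene per cell cannot be told apart.

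Of 31 fibroblast identity genes 2 were higher and 11 lower, with a median of -0.96 against −0.22 over all genes, and the list summed to 13996 to 16474 CPM in Gli3FF and 21776 to 29415 in wild type. Thy1, a surface glycoprotein of many fibroblasts, was one of the higher genes, at 465 and 368 CPM against 152 to 226 (log2 change 1.15, adjusted p = 0.0385). Pdgfra, whose promoter drives the Cre, was at 252 and 321 CPM against 187 to 242 (log2 change 0.36, adjusted p = 0.36), and Cd34 was at 939 and 809 against 852 to 987 (adjusted p = 0.928). The counts were 1 higher and 5 lower against wild type 4 and 5, 0 and 6 without Gli3FF replicate 1, and 1 and 5 without replicate 2. Against Gli2FF the list went 3 higher and 3 lower and against SmoFF 5 higher and 9 lower.

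**Figure D3:**
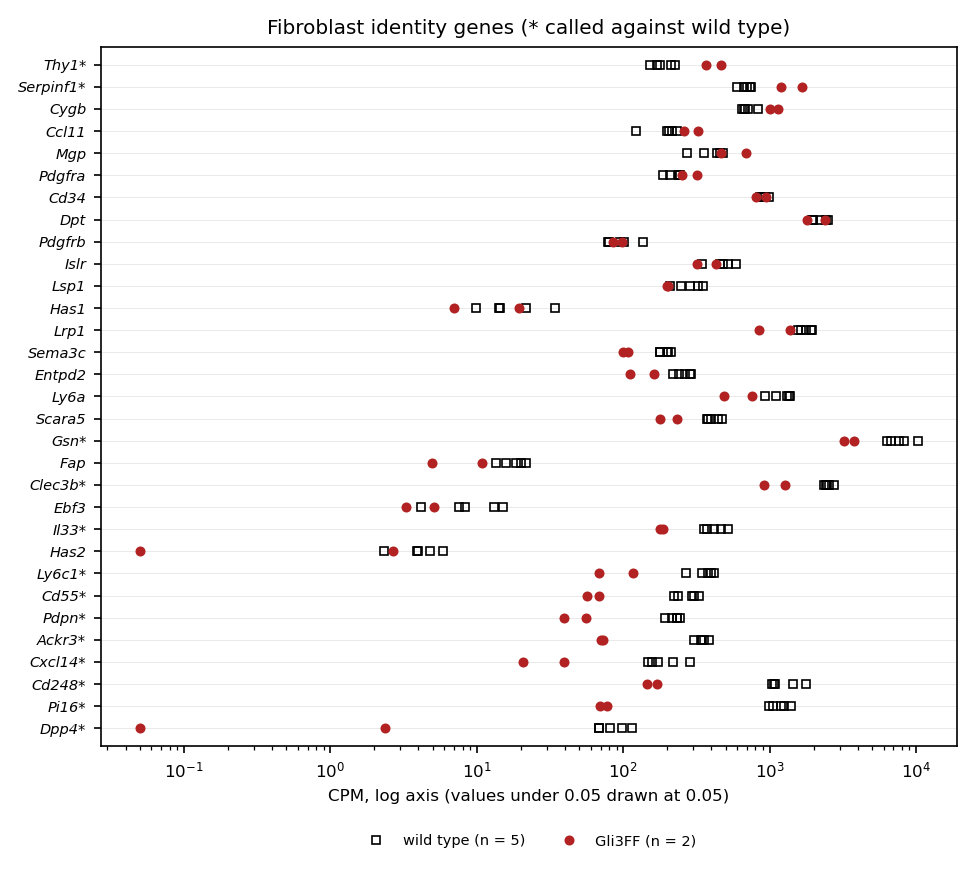
CPM on a log axis of the 31 fibroblast identity genes in the 5 wild type libraries (open squares) and the 2 Gli3FF libraries (red), ordered by log2 change, with called genes starred. Dpp4, Pi16 and Cd248 at the bottom lie far left of wild type, while Cd34 and Dpt overlap it.

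Among transcription factors of mesenchyme, 4 of 36 were higher and 4 lower. Tcf21, a basic helix-loop-helix factor of visceral mesenchyme, was at 266 and 227 CPM in Gli3FF and at 51.02, 71.9, 51.9, 30.7 and 64.96 in wild type (log2 change 2.19, SE 0.32, adjusted p = 0.00019). Wt1, a zinc finger factor that is also a mesothelial marker, was at 10.2 and 13.8 CPM against 74.9, 66.9, 63.5, 90.7 and 84.9 (log2 change -2.66, SE 0.38, adjusted p = 0.000172). The groups did not overlap for either gene. Ebf2, a factor of adipocyte precursors, was at 1.15 and 6.38 CPM against 73.5, 29.97, 59.5, 61.2 and 43.8 (log2 change -3.82, SE 0.65, adjusted p = 0.00087), and its relative Ebf1 at 55.6 and 67.96 against 196 to 375 (log2 change -2.23, SE 0.50, adjusted p = 0.0102). The calls of all 4 held against wild type 4 and 5 alone, where the list went 1 higher and 3 lower. It went 2 and 2 without Gli3FF replicate 1, where Ebf1 was lost (adjusted p = 0.19), and 1 and 2 without replicate 2, where Ebf1 was lost as well (adjusted p = 0.075). Among 19 adipogenic genes edgeR called none higher and 2 lower (0 and 6 with no adjustment of p, 0 and 5 with DESeq2, 0 and 2 with limma voom), namely the lipase gene Lpl, at 206 and 249.8 CPM against 696 to 1004 (log2 change -1.87, SE 0.35, adjusted p = 0.00187), and Zfp423, a zinc finger factor of adipocyte precursors, at 7.75 and 4.66 against 31.8 to 36.9 (log2 change -2.46, SE 0.40, adjusted p = 0.000612). None of 22 tested Hox genes was called by edgeR (0 higher and 4 lower at unadjusted p under 0.05, 0 and 2 by DESeq2, 0 and 0 by limma voom), with Hoxa3 at 18.5 and 19.7 CPM against 13.2 to 22.2.

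Secreted modulators of Wnt signalling changed in both directions. Sfrp2, a secreted frizzled-related protein that binds Wnt ligands (chromosome 3 from 83766321 to 83774316), was at 0.915 and 1.23 CPM in Gli3FF and at 245, 215, 176, 157 and 120.1 in wild type. Wif1, another secreted Wnt inhibitor, was at 439.96 and 442 CPM against 20.9, 26.2, 26.1, 16.4 and 32.6. The order of the groups was opposite for the pair, with Sfrp2 close to absent and Wif1 abundant in both Gli3FF libraries. Sfrp2 changed by -7.41 (SE 0.61, adjusted p = 9.31e-08) and Wif1 by 4.18 (SE 0.64, adjusted p = 0.000351). Both held against wild type 4 and 5 (adjusted p = 1.05e-05 and 0.0374), without Gli3FF replicate 1 and without replicate 2. For comparison, Sfrp2 ranged from 22.9 to 64.4 CPM in Gli2FF, 55.5 to 106 in SmoFF and 26.5 to 75.8 in Gli2FFGli3FF, and Wif1 from 1.26 to 5.17, 2.34 to 21.5 and 8.37 to 34.03. The ligand gene Wnt10b had no count in either Gli3FF library and was at 20.97, 12.1, 13.6, 16.7 and 17.2 CPM in wild type, at least 292-fold lower with a floor of 3 counts over the group (adjusted p = 0.00419). Rspo1, which enhances Wnt signalling, was at 13.1 and 2.21 CPM against 27.9 to 61.5 (log2 change -2.54, SE 0.55, adjusted p = 0.00703). Wnt ligands and modulators went 2 higher and 4 lower of 21, and 1 and 4 against wild type 4 and 5. The counts were 1 and 2 without Gli3FF replicate 1 and 1 and 1 without replicate 2, and Wnt10b was lost in both (adjusted p = 0.0818 and 0.0578).

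Of 20 targets of Wnt and beta-catenin 3 were higher and 1 lower. Apcdd1, an inhibitor that Wnt induces, was at 47.3 and 25.9 CPM against 2.84 to 6.07 (log2 change 3.03, SE 0.48, adjusted p = 0.000411). Tnfrsf19, a receptor of the TNF family, was at 54.5 and 67.5 against 8.65 to 22.7 (log2 change 1.97, SE 0.41, adjusted p = 0.00474). Myc, the growth-promoting transcription factor, was at 102 and 85.7 CPM against 26.7 to 38.6 (log2 change 1.51, SE 0.30, adjusted p = 0.00401). The lower member was the growth factor gene Fgf9, at 0.0795 and 0.0701 CPM against 8.78 to 19.6 (adjusted p = 0.00149). Against wild type 4 and 5 the list went 1 higher and 1 lower, Apcdd1 and Fgf9 being the pair that passed, and 2 and 1 without Gli3FF replicate 1 or replicate 2.

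Antagonists of BMP and activin rose or fell one by one. Grem1, which binds and blocks BMP ligands, was at 118 and 59.7 CPM in Gli3FF and at 2.004, 11.9, 6.33, 7.09 and 12.5 in wild type (log2 change 3.47, SE 0.61, adjusted p = 0.00116). Chrdl1, a chordin-like BMP antagonist, was at 206 and 128 CPM against 54.8, 59.5, 66.5, 52.98 and 75.9 (log2 change 1.43, SE 0.30, adjusted p = 0.00569). Both genes were higher in each Gli3FF library than in any wild type library. Fst, the activin-binding follistatin, was at 4.45 and 0.631 CPM against 33.7, 23.2, 34.1, 71.01 and 60.7 and fell (log2 change -4.14, SE 0.74, adjusted p = 0.00149). Bambi, a decoy receptor of the TGF-beta family, was at 51.4 and 51.8 CPM against 13.1 to 21.97 (log2 change 1.54, SE 0.33, adjusted p = 0.00667). Of 24 genes of the BMP list, which does not hold Bmp4 itself, 5 were higher and 3 lower, and 3 and 1 against wild type 4 and 5. Without Gli3FF replicate 1 the count was 1 and 1, and without replicate 2 it was 2 and 1.

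The receptors of TGF-beta moved apart. Tgfbr2 was at 97.6 and 135 CPM in Gli3FF and at 640.2, 502, 456, 483 and 391 in wild type (log2 change -2.09, SE 0.42, adjusted p = 0.00398), while Tgfbr1 was at 112 and 106 against 49.8, 64.9, 53.6, 52.3 and 61.3 (log2 change 0.95, SE 0.27, adjusted p = 0.0431). Tgfbi, a matrix protein that TGF-beta induces, was at 378 and 345 CPM against 114 to 148 (log2 change 1.44, SE 0.33, adjusted p = 0.0103). Inhba, an activin subunit, was at 25.6 and 61.1 against 3.55 to 13.96 (log2 change 2.42, SE 0.66, adjusted p = 0.0358). Of the 20 members of that list 3 were higher and 2 lower, and these calls rested on the full set of libraries. Against wild type 4 and 5 edgeR called 0 higher and 0 lower (4 and 2 at unadjusted p under 0.05), with adjusted p = 0.0514 for Tgfbr2, 0.219 for Tgfbr1, 0.0849 for Tgfbi and 0.338 for Inhba. It called 0 and 0 without Gli3FF replicate 1 (6 and 2 at unadjusted p under 0.05), and 0 and 1 without replicate 2. Notch signalling held 2 lower genes among 12 and no higher one (0 and 4 with no adjustment of p, 0 and 3 with DESeq2, 0 and 1 with limma voom), namely the receptor gene Notch2, at 38.7 and 62.8 CPM against 116 to 201 (log2 change -1.66, SE 0.30, adjusted p = 0.00177), and its target Hes1, at 16.9 and 15.6 against 25.6 to 54.3 (log2 change -1.18, SE 0.32, adjusted p = 0.0348). Without Gli3FF replicate 1 both were lost (adjusted p = 0.116 for Notch2 and 0.25 for Hes1), and without replicate 2 Hes1 was lost (adjusted p = 0.212).

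Growth factors for neighbouring cells included both risers and fallers. Ptn, the heparin-binding factor pleiotrophin, was at 1157 and 864 CPM in Gli3FF and at 153, 188, 173, 153 and 171 in wild type (log2 change 2.59, SE 0.32, adjusted p = 3.04e-05). Hgf, which acts on epithelial cells through Met, was at 27.95 and 74.1 CPM against 20, 13.1, 18.7, 23.6 and 20.7 (log2 change 1.41, SE 0.34, adjusted p = 0.0174). The rise of Hgf rested mainly on Gli3FF replicate 2, with a log2 change of 0.54 without it and 1.95 without replicate 1. Fgf2 was at 25.1 and 17.2 CPM against 43.4 to 59.04 (log2 change -1.27, SE 0.35, adjusted p = 0.0355) and the binding protein gene Igfbp7 at 576 and 384 against 650.4 to 1764 (log2 change -1.34, SE 0.32, adjusted p = 0.014). Of 33 members 3 were higher and 2 lower, and Ptn and Igfbp7 were the pair called against wild type 4 and 5. The counts were 2 and 0 without Gli3FF replicate 1 (8 and 3 at unadjusted p under 0.05) and 1 and 1 without replicate 2, and Igfbp7 was lost in both (adjusted p = 0.0585 and 0.192).

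Collagen genes were called in 1 direction, with 7 of 29 higher and 0 lower by edgeR (9 and 1 at unadjusted p under 0.05, 7 and 1 by DESeq2, 8 and 0 by limma voom), against 2.09% of all genes higher. Their summed level was 28039 to 28566 CPM in Gli3FF and 14762 to 25619 in wild type. Both chains of collagen I, the main fibrillar collagen, were among the 7. Col1a1 was at 6757 and 6771 CPM against 5123, 3861, 3836, 3541 and 3185 (log2 change 0.79, SE 0.21, adjusted p = 0.0321) and Col1a2 at 6249.7 and 5999 against 3955, 3207, 3444, 3071 and 2698 (log2 change 0.90, SE 0.18, adjusted p = 0.00301). The call of Col1a1 was lost against wild type 4 and 5 (adjusted p = 0.0504) and against wild type 1 to 3 (adjusted p = 0.173). That of Col1a2 held against both (adjusted p = 0.0109 and 0.0268). Col1a1 was at a similar level in SmoM2, at 6701, 6210 and 6061 CPM. In SmoFF, by contrast, Col1a1 was at 1397, 1163, 1142 and 2144 CPM, and the direct difference between Gli3FF and SmoFF was 2.21 log2 (SE 0.22, adjusted p = 1.24e-06).

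The 3 with the largest changes of the 7 were minor chains of basement membrane collagen IV. Col4a5 was at 178 and 207 CPM in Gli3FF and at 53.9, 49.8, 60.1, 46.1 and 44.5 in wild type (log2 change 1.92, SE 0.23, adjusted p = 2.32e-05). Col4a6 was at 70.1 and 85.03 CPM against 6.72, 5.74, 7.83, 10.2 and 9.05 (log2 change 3.29, SE 0.38, adjusted p = 1.60e-05). Col4a3 was at 58.02 and 102 against 7.87, 7.62, 13.4, 10.5 and 19.5 (log2 change 2.77, SE 0.53, adjusted p = 0.00248). In each case both Gli3FF libraries lay above the wild type range, and Col4a5 and Col4a6 also passed against wild type 4 and 5 (adjusted p = 0.00166 and 0.00543). Col4a5 was at 127 and 77.02 CPM in Gli2FF and 103 to 125 in Gli2FFGli3FF, and Col4a6 at 31.2 and 17.9 and at 18.3 to 27.5. In SmoM2 they were at 55.3 to 89.9 and 29.1 to 38.01, and in SmoFF at 18.8 to 23.3 and 6.09 to 17.4. Neither Col4a5 nor Col4a6 passed in the direct comparison with Gli2FF (edgeR adjusted p = 0.0765 and 0.0561), and both passed against SmoFF. The list went 3 higher and 0 lower against wild type 4 and 5, and the same in number with Gli3FF replicate 1 or replicate 2 left out.

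Col4a5 and Col4a6 lie head to head on the X chromosome, with starts 1343 bases apart, and are transcribed away from each other. The 250 bases before each start are shown because these neighbours were both called higher, and whether they share a cause was not tested. They are from RefSeq (GRCm38.p6, the patch release of mm10), read 5′ to 3′ on the strand of the gene, with CG dinucleotides in capitals. The Col4a5 window lies at chrX:141475169-141475418 on the plus strand and the Col4a6 window at chrX:141474077-141474326 on the minus strand.
Col4a5: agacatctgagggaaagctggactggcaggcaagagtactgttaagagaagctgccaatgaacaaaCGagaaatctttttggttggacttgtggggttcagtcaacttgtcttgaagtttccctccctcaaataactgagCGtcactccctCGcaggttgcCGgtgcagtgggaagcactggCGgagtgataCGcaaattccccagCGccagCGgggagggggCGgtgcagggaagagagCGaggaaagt
Col4a6: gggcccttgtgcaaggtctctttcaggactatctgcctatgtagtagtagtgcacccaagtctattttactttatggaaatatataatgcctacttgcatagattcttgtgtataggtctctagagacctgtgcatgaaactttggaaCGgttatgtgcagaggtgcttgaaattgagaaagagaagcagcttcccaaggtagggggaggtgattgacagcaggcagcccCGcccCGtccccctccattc
The Col4a5 window holds 10 CG dinucleotides and the Col4a6 window 3, against a median of 13 over windows of tested genes, and their GC content is 54.0% and 47.6%. A Gli consensus, GACCACCCA, searched on both strands in the windows from 250 bases before to 50 after each start, lay in 83 of 32851 windows (0.253%). Neither Col4a5 nor Col4a6 held it. Counted by gene, it lay in a window of 0 of 320 genes called higher and 2 of 347 (0.576%) called lower, against 33 of 13535 (0.244%) over all tested genes with a window. At so low a share these counts are too small to tell the sets apart.

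Other matrix genes split, with 8 of 54 elastic fibre, proteoglycan and glycoprotein genes higher and 11 lower. Fn1, fibronectin, was at 405 and 359.5 CPM in Gli3FF and at 2389.9, 1818, 2224, 1714 and 1229 in wild type (log2 change -2.29, SE 0.36, adjusted p = 0.000379). Fbln2, the elastic fibre protein fibulin 2, was at 147 and 139.8 CPM against 1138, 642, 742, 782 and 468 (log2 change -2.39, SE 0.40, adjusted p = 0.000693). The glycoprotein gene Emilin2 was at 27 and 19.98 against 209, 150.1, 152, 158 and 129 (log2 change -2.76, SE 0.27, adjusted p = 1.46e-06). For all 3 the groups were apart, with Gli3FF lower. Spon1, the matrix protein spondin 1, was at 642 and 569 CPM against 154, 215, 162, 144 and 152 and rose (log2 change 1.87, SE 0.29, adjusted p = 0.000349). Fmod, a proteoglycan that shapes collagen fibrils, was at 137 and 107 against 30.5 to 44.01 (log2 change 1.73, SE 0.37, adjusted p = 0.00699). Ccn2, a matricellular protein that TGF-beta and YAP induce, was at 96.99 and 103 CPM against 12.2, 8.65, 9.88, 30.1 and 9.02 (log2 change 2.84, SE 0.53, adjusted p = 0.0019). Against wild type 4 and 5 the list went 1 higher and 7 lower, and it went 2 and 5 without Gli3FF replicate 1 and 5 and 7 without replicate 2. Matrix proteases and inhibitors went 1 higher and 4 lower of 26, and 1 and 1 against wild type 4 and 5. The counts were 0 and 0 by edgeR without Gli3FF replicate 1 (3 and 7 at unadjusted p under 0.05) and 1 and 2 without replicate 2. The collagenase gene Mmp14 was at 102 and 102 CPM against 201 to 291 (log2 change -1.23, SE 0.27, adjusted p = 0.00852), the serine protease gene Htra3 at 433 and 422 against 1035 to 1614 (log2 change -1.64, SE 0.39, adjusted p = 0.0162) and the cathepsin gene Ctsk, the higher one, at 349 and 241 against 96.1 to 180.4 (log2 change 1.03, SE 0.24, adjusted p = 0.0136). Htra3 was lost against wild type 4 and 5 (adjusted p = 0.0757), and all 3 were lost without Gli3FF replicate 1 (adjusted p = 0.142 for Mmp14, 0.184 for Htra3 and 0.379 for Ctsk).

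Of 22 contractile genes 5 were called higher in Gli3FF and 1 lower, against 2.09% higher and 2.36% lower over all genes. The list summed to 4107 to 4946 CPM in Gli3FF, 4320 to 4692 in SmoM2 and 2662 to 3464 in wild type. The other genotypes did not exceed the wild type range. Myl9, which encodes a regulatory light chain of smooth muscle myosin, had 259 and 235 CPM in Gli3FF and 42, 51.2, 30.7, 30.4 and 36.5 in wild type (log2 change 2.70, SE 0.33, adjusted p = 3.00e-05). Mylk, the kinase that phosphorylates it, was at 93.7 and 104 CPM against 23.7, 18.02, 22.1, 20.02 and 27.1 (log2 change 2.16, SE 0.36, adjusted p = 0.000843). Des, the muscle intermediate filament desmin, was at 99.5 and 116 against 24.6, 33.3, 42.4, 16.8 and 33.4 (log2 change 1.84, SE 0.46, adjusted p = 0.02). Each Gli3FF library was above each wild type library for these 3 genes. Acta2, smooth muscle actin, was at 71.2 and 80.02 CPM against 26.8 to 33.6 (log2 change 1.32, SE 0.58, adjusted p = 0.221), which did not pass and was chosen here after its values were seen. Myl9 was also at 107 to 120 CPM in SmoM2, 131 to 168 in Ctnnb1FF and 110 to 146 in Gli2FFGli3FF. Acta2 was at 171 to 199, 39.03 to 194 and 101 to 278 in the same genotypes. In Gli2FF Myl9 was at 23.2 and 50.2 CPM and Acta2 at 47.8 and 110. In SmoFF they were at 10.9 to 38.3 and 4.11 to 50.6. The lower gene was the collagen-binding integrin Itga11, at 4.25 and 14.7 CPM against 77.1 to 104 (log2 change -3.23, SE 0.57, adjusted p = 0.00128). The median was 0.72, and the counts were 3 and 1 against wild type 4 and 5, 2 and 0 without Gli3FF replicate 1 and 3 and 1 without replicate 2. Smooth muscle and pericyte markers summed to 665 to 728 CPM in Gli3FF against 271 to 409, with 2 of 16 higher (Des and Abcc9, both lost against wild type 4 and 5 and without Gli3FF replicate 1 or replicate 2) and Actg2, Cnn1 and Higd1b at 0 counts in both Gli3FF libraries, and their part in the contractile genes was not tested.

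Among complement genes, Cd59a, which blocks the membrane attack complex, was at 99.6 and 76.02 CPM in Gli3FF and at 30.7, 24.2, 29.1, 28.7 and 21.6 in wild type (log2 change 1.71, SE 0.28, adjusted p = 0.000612). It rose in both Gli3FF libraries above the whole wild type range, while Cd55, given above, fell. The calls of Cd59a and Cd55 held against wild type 4 and 5 and with Gli3FF replicate 1 or replicate 2 left out. Among chemokines and cytokines 2 of 29 were higher and 2 lower. The counts were 1 and 1 against wild type 4 and 5 or without Gli3FF replicate 1, and 2 and 0 without replicate 2 (3 and 3 at unadjusted p under 0.05). Ccl19, the ligand of Ccr7 that guides dendritic and T cells, was at 125 and 75.4 CPM against 15.7, 16.1, 17.03, 15.8 and 15.1 (log2 change 2.65, SE 0.33, adjusted p = 3.00e-05). Tslp, a cytokine of barrier tissues, was at 95.7 and 54.9 CPM against 11.1, 10.02, 12.8, 9.92 and 23.3 (log2 change 2.49, SE 0.53, adjusted p = 0.00611), and Ccl8 fell to 0.159 and 1.23 CPM from 93.99, 5.48, 53.1, 65.2 and 2.36, a spread wide in wild type itself (adjusted p = 0.0174). Only 2 of 46 genes of the interferon response were called, both lower and near the background share (3 and 7 with no adjustment of p, 1 and 3 with DESeq2, 1 and 1 with limma voom), with Iigp1, an interferon-induced GTPase, at 7.83 and 12.1 CPM against 20.9 to 55.3 (log2 change -1.86, SE 0.43, adjusted p = 0.0127).

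Clock genes had the largest share called among lists with at least 10 tested members, 9 of 19 higher and 1 lower, with a median of 1.81. Per1, a repressor of the circadian loop, was at 123 and 129 CPM in Gli3FF and at 34.2, 28.7, 28.6, 27.2 and 28.9 in wild type (log2 change 2.09, SE 0.29, adjusted p = 0.000144). Hlf and Tef, output factors of the PAR bZIP family, were at 86.01 and 30.1 CPM against 3.01, 2.57, 1.84, 1.94 and 2.06 and at 77.9 and 60.9 against 6.902, 11, 8.21, 8.52 and 7.53. Each stood above the whole wild type range in both Gli3FF libraries, with Hlf changing by 4.67 (SE 0.57, adjusted p = 2.71e-05) and Tef by 3.04 (SE 0.52, adjusted p = 0.000996). Nr1d2, a REV-ERB nuclear receptor, was at 90.4 and 70.6 CPM against 14.4, 9.63, 8.34, 11.2 and 8.58 (log2 change 2.95, SE 0.55, adjusted p = 0.00209) and Per3 at 41.6 and 89.2 against 3.12, 3.17, 6.203, 7.33 and 11.7 (log2 change 3.37, SE 0.74, adjusted p = 0.00852). Activators that peak opposite these genes in the daily cycle are given next, chosen after their values were seen. Npas2 fell, at 1.43 and 6.87 CPM against 28.8, 32.3, 27.7, 29.5 and 26.7 (log2 change -2.80, SE 0.76, adjusted p = 0.0361), while its partner Arntl did not pass, at 0 and 6.52 against 27.1, 22.6, 43.5, 41.6 and 55.2 (log2 change -3.53, SE 1.07, adjusted p = 0.0619).

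The clock genes varied within genotypes too. Nr1d1, the other REV-ERB gene, had 275 and 287 CPM in Gli3FF and 51.02, 57.3, 42.9, 53.1 and 42.6 in wild type. The SmoFF libraries gave 418, 228, 8.64 and 19.1 CPM, so that SmoFF replicates 1 and 2 stood near Gli3FF and replicates 3 and 4 below wild type. Arntl was at 4.68, 3.55, 44.98 and 36.9 CPM in the same SmoFF libraries, in the reverse order. The hour at which each duct was taken is not in the labels, so genotype and hour cannot be told apart. The count was 3 higher and 0 lower against wild type 4 and 5, 5 and 0 without Gli3FF replicate 1 and 7 and 2 without replicate 2, and against Gli2FF or SmoFF 1 was higher and 0 lower. Among genes that glucocorticoids induce, Tsc22d3 and Sgk1 rose. Tsc22d3 was at 392 and 307 CPM against 70.5, 58.8, 62.03, 65.6 and 73.3 (log2 change 2.40, SE 0.41, adjusted p = 0.000938) and Sgk1 at 62.9 and 90.6 against 20.9, 16.8, 7.83, 22.04 and 17.7 (log2 change 2.17, SE 0.32, adjusted p = 0.000213). With Per1 and the retinol carrier Rbp4, at 385 and 264 CPM against 32.1, 50.6, 33.2, 22.3 and 46.5 (log2 change 3.13, SE 0.36, adjusted p = 1.57e-05), they were among 7 higher and 2 lower of 24 retinoic acid and steroid response genes. These went 3 and 1 against wild type 4 and 5, 4 and 1 without Gli3FF replicate 1 and 5 and 1 without replicate 2.

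**Figure D4:**
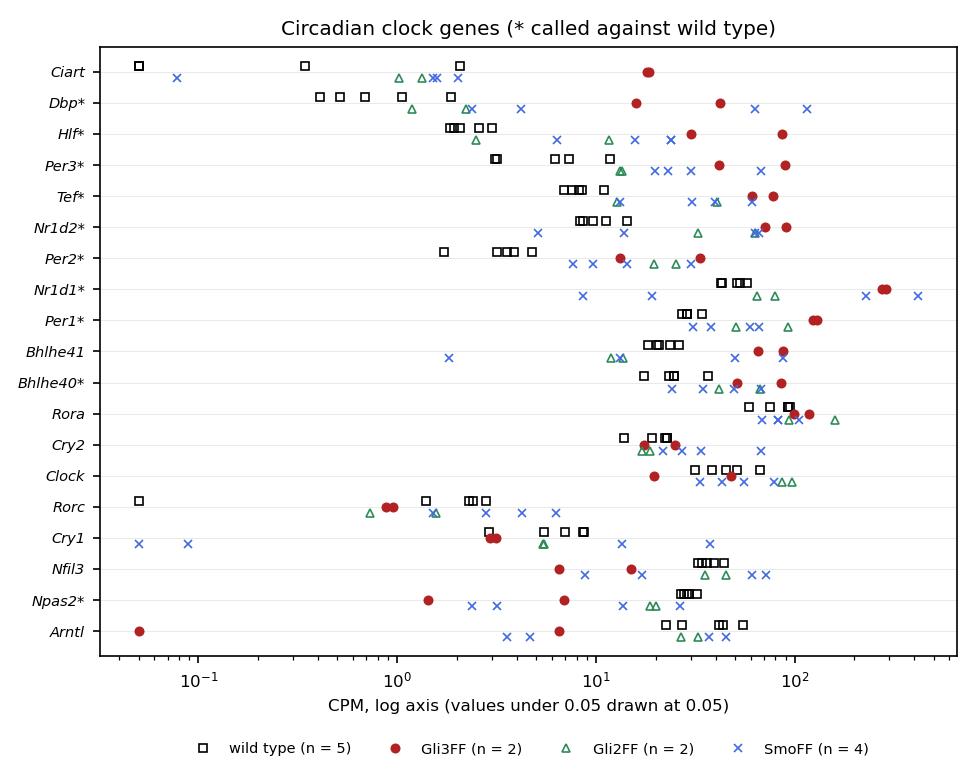
CPM on a log axis of the 19 circadian clock genes in wild type (black squares), Gli3FF (red), Gli2FF (green) and SmoFF (blue crosses) libraries, ordered by log2 change in Gli3FF against wild type, with called genes starred. Dbp, Hlf and Per3 lie right of wild type and Npas2 and Arntl left of it in Gli3FF, and the 4 SmoFF libraries spread over a wide range.

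Of 35 immediate-early genes, a class that enzymatic digestion can induce, 6 were higher and 3 lower. Fos was at 1028 and 1558 CPM in Gli3FF and at 455, 464, 506, 672 and 729 in wild type (log2 change 1.19, SE 0.27, adjusted p = 0.0101). Ier3, another fast-responding gene, was at 90.8 and 115 against 17.3, 28.4, 48.6, 25.4 and 28.7 (log2 change 1.79, SE 0.37, adjusted p = 0.00459). Klf2, a zinc finger factor, was at 7.75 and 17.7 CPM against 85.2, 30.9, 32.4, 134 and 111 and fell (log2 change -2.63, SE 0.56, adjusted p = 0.00673). The counts were 1 and 2 against wild type 4 and 5, 7 and 0 without Gli3FF replicate 1, and 0 and 2 without replicate 2. The summed level of the list was 3443 to 7486 CPM in Gli3FF and 3635 to 6141 in wild type. Of 43 cell cycle genes 1 was higher, the replication clamp Pcna at 52.7 and 28.95 CPM against 13.4 to 21.3 (log2 change 1.27, SE 0.27, adjusted p = 0.00632), and 1 lower, the cell cycle inhibitor Cdkn1c at 19.9 and 15.8 against 47.3 to 104 (log2 change -1.98, SE 0.47, adjusted p = 0.0145). Without Gli3FF replicate 1 both were lost (adjusted p = 0.416 for Pcna and 0.14 for Cdkn1c). Those counts are near the background, although the median of the list was 1.41.

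Genes of energy metabolism rose in part. Of 44 nuclear genes of oxidative phosphorylation edgeR called 5 higher and none lower (13 and 0 with no adjustment of p, 6 and 0 with DESeq2 and with limma voom). Sdhd, a subunit of succinate dehydrogenase, was at 143 and 94.04 CPM in Gli3FF and at 35.4, 33.3, 47.8, 30.99 and 23.8 in wild type (log2 change 1.79, SE 0.27, adjusted p = 0.000326). Cox6c, a subunit of cytochrome oxidase, was at 301 and 182 against 82.3, 91.7, 96.1, 77.4 and 68.3 (log2 change 1.54, SE 0.27, adjusted p = 0.00142). The count was 3 higher against wild type 4 and 5, 1 without Gli3FF replicate 1 and 5 without replicate 2. The last pair had list medians of 0.17 and 0.72, and Cox6c was lost without replicate 1 (adjusted p = 0.135). The 15 mitochondrially encoded genes gave no call (1 higher and 0 lower at unadjusted p under 0.05, 0 by DESeq2 and by limma voom), with mt-Co3 at 7833 and 4734 CPM against 3465 to 4802. Ucp2, a proton carrier of the inner mitochondrial membrane, was at 358 and 233 CPM against 22.3, 23.8, 20.4, 26.1 and 18.9 (log2 change 3.73, SE 0.31, adjusted p = 9.31e-08). Ucp2 was also above the wild type range in 3 other genotypes, at 106 to 225 CPM in SmoFF, 134 to 139 in Gli2FF and 221 to 457 in Gli2FFGli3FF, and it did not pass in the direct comparisons with Gli2FF (adjusted p = 0.115) or SmoFF (adjusted p = 0.186).

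Ribosomal protein genes went 11 higher and 3 lower of 68, a direction that rested on Gli3FF replicate 1 and on the choice of controls. Without Gli3FF replicate 1 edgeR called 0 higher and 2 lower (3 and 11 at unadjusted p under 0.05) with a median of -0.03, and without replicate 2 it called 14 and 2. Against wild type 1 to 3 the count was 4 higher and 8 lower, and against wild type 4 and 5 it was 5 and 2. Rpl11, which rose, was at 170.4 and 119.7 CPM in Gli3FF and at 77.3, 77.4, 79.7, 68.4 and 61.95 in wild type (log2 change 0.99, SE 0.20, adjusted p = 0.00487), a call lost without Gli3FF replicate 1 (adjusted p = 0.278). The lower ones were Rps2, Rpl34 and Rps18. Rps2 was at 62.9 and 41.5 CPM against 536, 601, 478, 427 and 409 (log2 change -3.23, SE 0.26, adjusted p = 9.31e-08) and Rpl34 at 45.4 and 19.7 against 159, 176, 168, 126 and 115 (log2 change -2.19, SE 0.30, adjusted p = 0.000103). A pseudogene of each moved the opposite way. Rps2-ps13 was at 243 and 164 CPM in Gli3FF and at 9.59 to 16.9 in wild type (log2 change 3.89, SE 0.26, adjusted p = 5.5e-09), and Rpl34-ps2 at 53.4 and 25.8 against 5.2 to 6.87 (log2 change 2.75, SE 0.27, adjusted p = 1.46e-06). Summed with its 12 pseudogenes, Rps2 came to 394 and 268 CPM against 457 to 661, and Rpl34 with its 2 came to 811 and 428 against 340 to 419. The low Rps2 was common to every library with a deleted Gli gene, at 24.7 to 25.99 CPM in Gli2FF and 28.4 to 37.1 in Gli2FFGli3FF, against 380 to 523 in SmoFF and 428 to 554 in Ctnnb1FF. Exons of 53 of the 180 named genes overlap those of another gene, 40 of them only on the opposite strand, and use of strand in counting is not given in the sources used here, so levels of those genes, among them Bmp4, Gli3, Hhip, Sfrp2, Pi16, Dpp4, Fn1 and Ucp2, are uncertain to that extent. How reads were divided between these near-identical ribosomal genes is not given in the sources used here, and the levels of Rps2 and Rpl34 are uncertain for that reason.

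Mesothelial and endothelial markers were partly lower in Gli3FF. Mesothelial markers summed to 84.3 to 143 CPM in Gli3FF and 233 to 545 in wild type, with 0 of 14 higher and 5 lower, and 0 and 2 against wild type 4 and 5 or with Gli3FF replicate 1 or replicate 2 left out. Krt18 and Muc16 were at 0 counts in both Gli3FF libraries. Krt19, a keratin, was at 1.51 and 0.736 CPM against 11.8, 22.4, 10.6, 15.8 and 30.5 (log2 change -4.02, SE 1.01, adjusted p = 0.0219). The mesothelial surface protein gene Lrrn4 was at 0.358 and 3.26 against 12.9, 35.02, 18.3, 14.2 and 42.6 (log2 change -3.75, SE 0.98, adjusted p = 0.0276). The list also holds Wt1 and Rspo1, both described above, and the part of mesothelial cells in their fall was not tested. Endothelial markers summed to 13.6 to 16.2 CPM against 76.5 to 101, with 2 of 12 lower and Pecam1, Cdh5, Kdr, Tie1, Emcn, Cldn5 and Erg at 0 in both Gli3FF libraries. Tek, the angiopoietin receptor, carried most of that sum in wild type, at 1.11 and 3.36 CPM in Gli3FF against 86.2, 54.1, 56.3, 68.6 and 56.3 (log2 change -4.83, SE 0.65, adjusted p = 8.09e-05). Kdr, a receptor that defines endothelium, was at 0.631, 1.03, 0.684, 2.34 and 1.18 CPM in wild type, at least 22.8-fold lower in Gli3FF with the same floor, and Cdh5 was at 0 in wild type as well.

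Immune markers summed to 16.1 to 33.02 CPM in Gli3FF and 9.29 to 115 in wild type, with none of 16 called by edgeR (0 higher and 5 lower at unadjusted p under 0.05, 0 and 4 by DESeq2, 0 by limma voom) and Ptprc at 0 in both Gli3FF libraries. Cholangiocyte markers went 0 higher and 2 lower of 16 (Krt7 and Krt19), with Epcam, Cdh1 and Cftr at 0 in both Gli3FF libraries. Pancreatic acinar markers went 0 and 0 of 13 by edgeR (2 higher and 0 lower at unadjusted p under 0.05, 1 and 1 by DESeq2, 0 by limma voom). Their summed level was 6.84 to 16.1 CPM against 1.08 to 7.401.

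**Figure D5:**
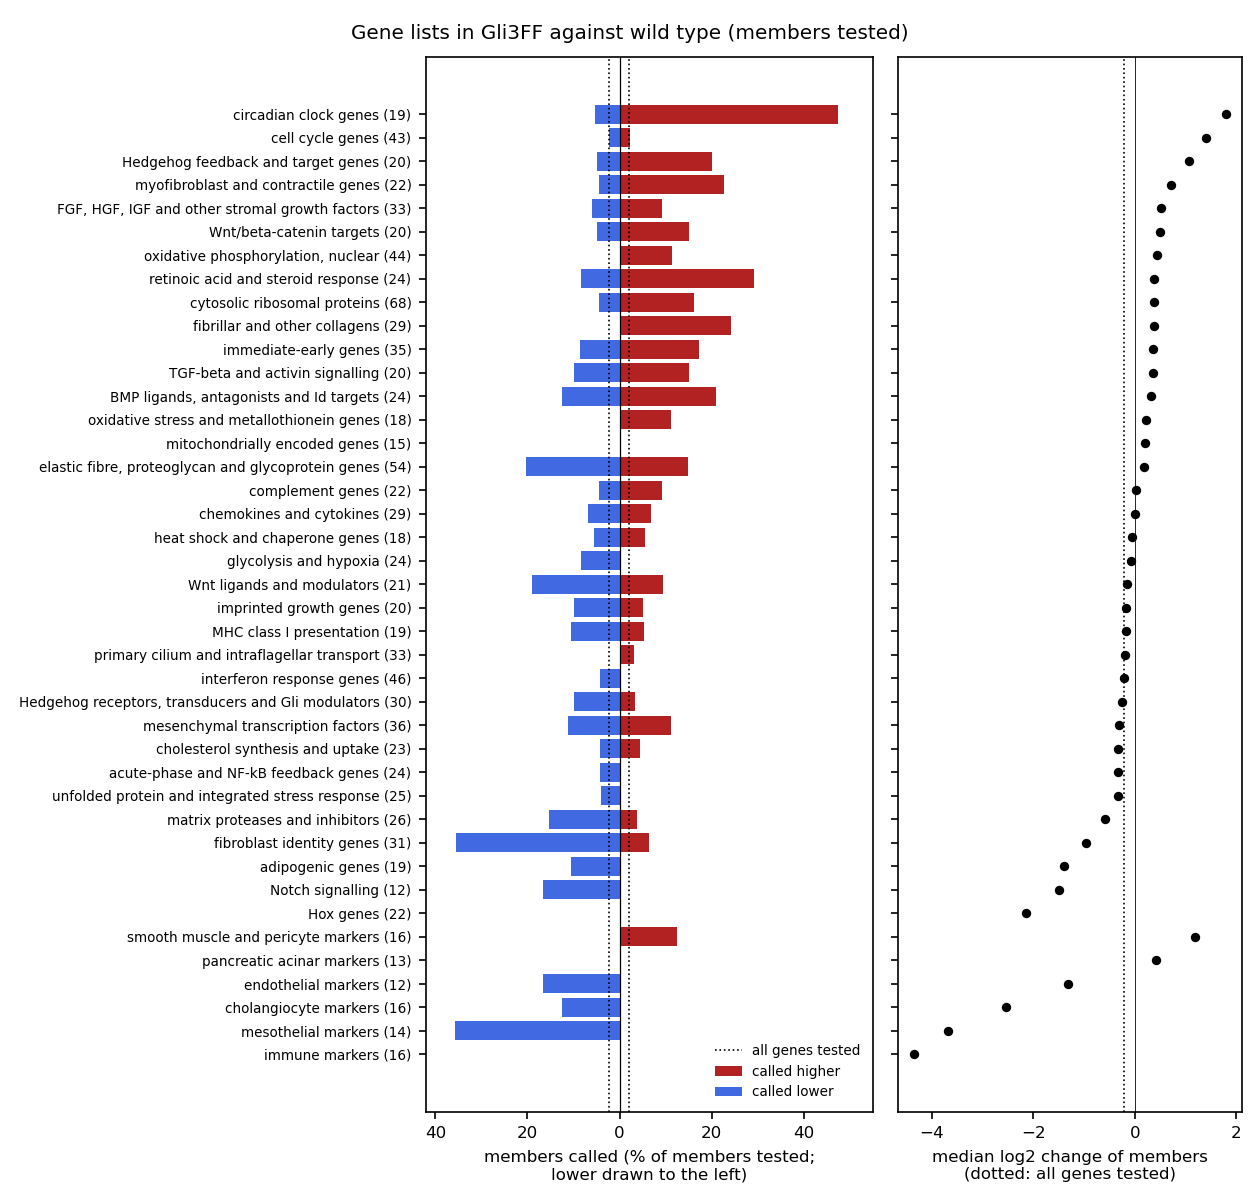
Share of tested members called higher (red, right) and lower (blue, left) in each gene list with at least 10 tested members, with the number tested in brackets and dotted lines at the shares over all genes (2.09% higher and 2.36% lower), and at right the median log2 change of each list beside that of all genes. Clock genes have the largest share higher, and fibroblast identity genes and mesothelial markers the largest shares lower.

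The Gli3 deletion was set against deletion of the other Gli factor without any wild type library. Libraries within Gli2FF and within SmoFF differed in Xist and Ddx3y, as given above, and the part of this in the comparisons was not tested. Between Gli3FF and Gli2FF, 623 genes were higher and 558 lower in Gli3FF (4.84% of 24383, with 2.56% higher and 2.29% lower). Wif1 was at 439.96 and 442 CPM in Gli3FF and at 5.17 and 1.26 in Gli2FF (log2 difference 7.12, SE 1.07, adjusted p = 0.000362), and Rbp4 at 385 and 264 against 20.5 and 19.5 (log2 difference 4.02, SE 0.52, adjusted p = 8.47e-05). Ptn was at 1157 and 864 CPM against 62.98 and 70.8 and Fmod at 137 and 107 against 14.2 and 3.61 (adjusted p = 3.56e-05 and 0.000185). Lower in Gli3FF were Sfrp2, at 0.915 and 1.23 against 22.9 and 64.4 CPM (log2 difference -5.34, SE 0.58, adjusted p = 1.60e-05), and Cmah, which makes a sialic acid, at 1.67 and 3.01 against 12.8 and 212 (adjusted p = 0.000339). Osr1 did not pass (adjusted p = 0.307), and Hhip was higher in Gli3FF, at 32.7 and 21.2 CPM against 0.474 and 0.993 (log2 difference 5.16, SE 1.17, adjusted p = 0.0117). When only the 4 libraries of these genotypes were fitted, edgeR called 0 genes (4456 at unadjusted p under 0.05), while DESeq2 over all libraries called 2400. Leaving out 1 library gave 362 and 468 without Gli2FF replicate 1 or 2, and 223 and 1082 without Gli3FF replicate 1 or 2.

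Between Gli3FF and SmoFF, in which the transducer upstream of Gli3 is targeted, 808 genes were higher and 758 lower in Gli3FF (6.42%, with 3.31% higher and 3.11% lower). Collagens went 14 higher and 0 lower of 29 and Hedgehog targets 8 higher and 2 lower of 20. Ptch1 was at 83.3 and 126 CPM in Gli3FF and at 24.6, 27.6, 32.9 and 34.03 in SmoFF (log2 difference 1.82, SE 0.39, adjusted p = 0.00621), and Hhip, the ligand trap, had 32.7 and 21.2 CPM against 2.65, 1.63, 0.239 and 1.05 (log2 difference 4.28, SE 0.84, adjusted p = 0.00271). Smo itself, the gene targeted in SmoFF, was at 33.4 and 46.5 CPM against 9.05, 7.79, 6.81 and 7.86 (adjusted p = 5.16e-06). Ccn2 was at 96.99 and 103 CPM against 0.795, 3.02, 2.51 and 3.97 (log2 difference 5.27, SE 0.61, adjusted p = 8.44e-06) and F2r, the thrombin receptor, at 477 and 405 against 28.3, 11.9, 46.3 and 14.6 (adjusted p = 5.51e-06). Dpp4 was lower than in SmoFF, at 0 and 2.35 CPM against 187, 107, 112 and 74.02 (log2 difference -6.65, SE 0.89, adjusted p = 5.45e-05), as was Ccn3, a matricellular protein, at 3.66 and 2.66 against 395, 117, 79.7 and 214 (adjusted p = 0.000271). Mesothelial markers went 0 higher and 11 lower of 14 here, and their part in the other falls was not tested. Without Gli3FF replicate 1 the count was 433 and without replicate 2 it was 1146.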

How the data were processed

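Bulk RNA-seq libraries of sorted common bile duct fibroblasts were read from the authors' deposited table of read counts per gene (55401 entries, the 110 repeats of a symbol kept as rows of their own). Per the submitters' processing notes reads were mapped to mm10. The aligner, the counter, its annotation and its use of strand were not given in the sources used here. Groups follow the labels. Low genes were removed with filterByExpr, and all 23 Pdgfra libraries were fitted together with edgeR 4.0.16 (TMM scaling, quasi-likelihood test, prior count 2, R 4.3.3), with Benjamini-Hochberg adjusted p under 0.05 over all genes tested. DESeq2 1.42.0 and limma 3.58.1 (voom) were alternatives, with other scalings, filters and controls and each library left out. The test was checked on simulated data, with changed genes drawn from all levels. It recovered 1% of 2-fold and 22% of 4-fold changes, with 1 false call. A gene that did not pass may therefore still have changed. Named genes were 12 fixed pathway genes, up to 4 called members of each list by smallest p, up to 12 called genes in each direction by size of change or by p against wild type 4 and 5 (mean log2 CPM at least 3, groups apart), up to 3 abundant members of a list with no call, and up to 6 genes in each direction for Gli2FF and SmoFF; others are said to be chosen after their values were seen. The members, lists and rules were chosen with earlier results of these data known. Promoters are from RefSeq.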

Additional observations from a re-analysis of the deposited data

Results flagged for a closer look

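In 10 of 183 wild type groups of 5 tested, 1 library lay farther from the others than Dixon's criterion (0.71 of the range) allows, where chance gives about 1 in 20. Replicate 5 was highest for Bmp4 (37.6 CPM, others 27.3 to 29.2), Gli1 (26.96 CPM, others 7.96 to 13.4), Tslp (23.3 CPM, others 9.92 to 12.8) and Scube1 (0.0338 CPM, others 0). Replicate 4 was highest for Ccn2 (30.1 CPM, others 8.65 to 12.2) and Arhgap29 (127.8 CPM, others 96.9 to 104.8). Replicate 2 was highest for Spon1 (215 CPM, others 144 to 162) and lowest for Lrrc55 (6.08 CPM, others 10.2 to 11.6). Replicate 1 was highest for Per1 (34.2 CPM, others 27.2 to 28.9), and replicate 3 for Cpa1, a pancreatic acinar enzyme (1.33 CPM, others 0.101 to 0.428).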

How the results depend on the processing

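The 1085 genes called against wild type became 2380 with DESeq2, 1654 with no filter on low counts and 485 with wild type 4 and 5 as controls, and ranged from 319 to 976 with 1 library left out. The 1181 called against Gli2FF became 2400 with DESeq2 and 0 by edgeR with only the groups compared in the fit (4456 at unadjusted p under 0.05), and ranged from 223 to 1082 with 1 library left out. The 1566 called against SmoFF became 3134 with DESeq2 and 656 with only the groups compared, and ranged from 433 to 1666 with 1 library left out. Of 146 called named genes 95 were called with wild type 4 and 5 as controls and 88 to 137 with 1 library left out. The share of higher calls against wild type was 58.9% with limma voom (761 higher and 532 lower) and 32.3% with wild type 1 to 3 as controls (347 and 728). No named gene that was called changed direction under the settings run. With the replicate number as a block the counts were 748 against wild type, 970 against Gli2FF and 1151 against SmoFF, and 123 named genes were called. The labels give these numbers no meaning as pairs, and the deviations of same-numbered libraries correlated at r = 0.166 for replicate 1 and −0.259 for replicate 2 with wild type, and at −0.0451 with Gli2FF. The cause of these differences was not tested. With 2 Gli3FF libraries, genes near the count filter and changes of small size have the least precision.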

Other observations

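Genes outside the lists gave some of the smallest p-values. Ahnak2, a large scaffold protein, was at 9.78 and 10.97 CPM in Gli3FF and at 154, 138, 118, 171 and 137 in wild type (log2 change -3.79, SE 0.28, adjusted p = 4.08e-08). Adgrd1, an adhesion receptor coupled to G proteins, was at 58.8 and 52.2 CPM against 532, 539.8, 570.3, 513 and 534 (log2 change -3.28, SE 0.26, adjusted p = 9.31e-08). Both fell in each Gli3FF library below the whole wild type range, as the rule by which they were picked required. Slc4a4, a sodium bicarbonate cotransporter, was at 6.28 and 4.52 CPM against 40.7 to 66.9 (log2 change -3.37, SE 0.39, adjusted p = 1.54e-05), and Nhsl1 at 2.54 and 4.52 against 70.2 to 96.1 (log2 change -4.52, SE 0.50, adjusted p = 1.05e-05). Pcsk6, a proprotein convertase, was at 0.0398 and 2.49 CPM against 42.9 to 138 (log2 change -6.13, SE 1.05, adjusted p = 0.000932).

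Among the genes that rose, Fblim1, an adaptor of focal adhesions, was at 149 and 215 CPM in Gli3FF and at 19.9, 26.8, 21.3, 23.5 and 30.4 in wild type (log2 change 2.90, SE 0.25, adjusted p = 2.41e-07). Mfge8, a secreted bridge for the uptake of dying cells, was at 698 and 624 CPM against 161, 166, 182, 153 and 159.9 (log2 change 2.01, SE 0.20, adjusted p = 1.99e-06), and the crosslinking enzyme Tgm2 at 533 and 594 against 145, 201, 158, 101 and 155 (log2 change 1.89, SE 0.21, adjusted p = 1.25e-05). Lepr, the leptin receptor, was at 224 and 203 CPM against 9.17 to 44.8 (log2 change 3.12, SE 0.53, adjusted p = 0.000938), and Iyd, which removes iodine from tyrosines, at 405 and 314 against 13.4 to 43.1 (log2 change 3.81, SE 0.57, adjusted p = 0.000267). All 10 of these genes were also called against wild type 4 and 5. For those picked by p in that comparison, the call was part of the choice and is no further support. The 10 kept their direction without either Gli3FF library in turn. Abcg1, a cholesterol exporter, was at 55.5 and 68.7 CPM against 8.497, 6.85, 6.63, 9.43 and 9.12 (log2 change 2.94, SE 0.53, adjusted p = 0.00149), a call that was lost against wild type 4 and 5 (adjusted p = 0.0784).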
